A study of Mus musculus with 9 samples.

Results

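Mustn1 was described here together with 9 genes of the actin cytoskeleton and of its transcriptional control: Srf, Enah, Vasp, Zyx, Actn1, Flna, Myh9, Tpm4 and Tagln2. The 10 genes were given by name and matched by their Ensembl identifiers to the table of gene counts, with no threshold on a measured value. All 10 were found among the 55487 genes of that table, and all 10 passed the filter on low counts that left 14851 genes for testing. The question was whether Mustn1 mRNA moved together with genes that respond to serum response factor (SRF) when muscle was unloaded and then loaded again.

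Gastrocnemius muscle, a calf muscle of the mouse, was profiled by sequencing of polyadenylated RNA in 9 libraries from wild-type C57BL/6 mice (C57BL/6J in the text of the study). The groups are named by load alone. Per the study's methods, lifted mice were also restrained, taped at the tail and kept in different cages, so handling and housing differed with load. The 4 Control mice stayed in conventional cages with normal walking. The 2 Unloading mice had their hindquarters lifted by the tail for 10 days, so that the hindlimbs bore no weight, and the 3 Reloading mice had the same 10 days and were then put back in their home cage for 1 day. The labels call all mice male, whereas the methods of the study name females for the lifting procedure, and neither gives the age of these animals. The labels do not say that each library is a separate mouse, so p-values measure the spread between these libraries. The model lifts both hindlimbs of the whole animal, and RNA came from whole muscle with all its cell types.

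Mustn1 encodes a small protein of muscle, bone and cartilage that was first described in the nucleus and that has no known enzymatic activity. SRF is a transcription factor that binds a short A/T-rich sequence, the CArG box, in the promoters of actin and adhesion genes and of immediate-early genes. Its cofactors of the myocardin family (Mrtfa, Mrtfb) are held back by free actin monomers and enter the nucleus when monomers are built into filaments, while ternary complex factors (Elk1, Elk4) link SRF to growth factor signals. Enah and Vasp lengthen actin filaments, Zyx brings them to adhesions under tension, Actn1 and Flna cross-link filaments, Myh9 is the heavy chain of a non-muscle myosin, Tpm4 is a tropomyosin that coats filaments, and Tagln2 is an actin-binding protein of the calponin family.

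The promoters of Mustn1, Srf and Enah are shown because Mustn1 and Enah had the largest changes of the 10 genes and Srf carries the site that its own protein binds. Each is the RefSeq window on build GRCm38.p6 from 250 bases before the start site to the first 50 bases of the transcript, 5′ to 3′ on the strand of the gene, and capitals mark matches to a motif. The Mustn1 window is chr14:30879007-30879306 on the plus strand, the Srf window is chr17:46556113-46556412 on the minus strand, and the Enah window is chr1:182019931-182020230 on the minus strand.
Mustn1: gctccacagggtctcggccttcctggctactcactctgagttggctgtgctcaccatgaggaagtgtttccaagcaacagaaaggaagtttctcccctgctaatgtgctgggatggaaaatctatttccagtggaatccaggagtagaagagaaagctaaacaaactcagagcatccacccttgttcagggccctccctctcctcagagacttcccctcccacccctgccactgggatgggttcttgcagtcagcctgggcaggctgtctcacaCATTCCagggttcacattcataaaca
Srf: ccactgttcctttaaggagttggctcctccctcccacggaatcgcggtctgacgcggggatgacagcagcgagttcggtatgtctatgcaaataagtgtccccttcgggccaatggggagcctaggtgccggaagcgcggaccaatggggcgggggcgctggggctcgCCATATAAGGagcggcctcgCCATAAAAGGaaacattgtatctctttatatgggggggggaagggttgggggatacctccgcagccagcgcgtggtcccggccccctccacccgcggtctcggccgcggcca
Enah: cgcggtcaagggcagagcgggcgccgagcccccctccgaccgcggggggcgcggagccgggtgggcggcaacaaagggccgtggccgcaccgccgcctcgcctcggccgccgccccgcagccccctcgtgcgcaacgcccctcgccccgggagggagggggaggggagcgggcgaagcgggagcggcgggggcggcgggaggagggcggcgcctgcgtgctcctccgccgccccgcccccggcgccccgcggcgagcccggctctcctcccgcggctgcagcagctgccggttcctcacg

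The motifs searched on both strands were the CArG box (CC, then 6 bases of A or T, then GG), the AP-1 motif TGANTCA and the TEAD motif GGAATG. The Srf window held 2 CArG boxes, from 82 to 73 and from 62 to 53 bases before the start site. None of the other 9 genes had a CArG box in this window, and 1.63% of all 32851 promoter windows had one. Allowing 1 mismatch to the CArG box, Srf, Vasp and Flna had a match and Mustn1 and Enah had none, against 21.1% of all windows. An AP-1 motif was found in Zyx, against 7.81% of all windows. A TEAD motif was found in Mustn1, Flna and Tagln2, against 14.7% of all windows, and in Mustn1 its complement lies just after the start site. A match is a description of these letters, and its absence says nothing of sites elsewhere. No 2 matches within a printed window overlapped.

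Among 24 genes listed from general knowledge as actin and adhesion targets of SRF, 18 had a promoter window and 9 of the 18 held a CArG box, against 1.81% of the 27025 genes with a window. The list was made of genes known as SRF targets, so its share of boxes is not an independent result. The boxes are shown with 10 bases on either side, with the box in capitals, so that they can be set beside the Mustn1 and Enah windows. The positions of the boxes on GRCm38.p6 are chr8:123894839-123894848 for Acta1, chr2:114052913-114052922 for Actc1, chr11:120348576-120348585 for Actg1, chr10:79988544-79988553 for Cnn2, chr2:156775303-156775312 for Myl9, chr14:20929171-20929180 for Vcl and chr15:99820187-99820196 for Lima1. Fhl1 and Fhl2 held the others.
Acta1: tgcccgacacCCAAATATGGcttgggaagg
Actc1: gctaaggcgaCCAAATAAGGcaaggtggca
Actg1: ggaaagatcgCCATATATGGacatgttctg
Cnn2: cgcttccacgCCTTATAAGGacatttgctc
Myl9: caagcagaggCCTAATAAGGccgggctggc
Vcl: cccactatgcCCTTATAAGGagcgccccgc
Lima1: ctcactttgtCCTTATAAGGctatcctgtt
Of these genes, Vcl, Cnn2, Actg1, Actc1, Myl9, Lima1, Fhl1 and Fhl2 were past the threshold as higher in Reloading than in Unloading. Acta1 was not called. In the whole list, written with earlier results of these data known, 20 of 23 tested genes were higher, where 18.5% of all tested genes were. Acta2, Itga5 and Ccn1, with a window but no exact box, were also higher, and Tpm1, likewise without an exact box, was lower. Allowing 1 mismatch, Acta2, Itga5 and Tpm1 had a match and Ccn1 had none, against 21.1% of all windows. Whether a box goes with a rise was not tested.

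Libraries held 9252443 to 19612101 counted read pairs. Levels are given as CPM, the counts of a gene per 1000000 counts, after TMM scaling (trimmed means of M-values), so that 1 read pair was worth 0.0546 to 0.113 CPM. The TMM factors were 0.928 to 0.960 in the Control and Unloading libraries and 1.11 to 1.13 in the Reloading libraries. Without these factors the median log2 fold change of all genes moved from 0.03 to 0.27 between Reloading and Unloading, and all directions below are relative to the TMM scale. Keratin transcripts of skin were present in Control 2 and Reloading 1, where Krt2 had 1086 and 502 counts, and the remaining 7 libraries had 0 to 3. Leaving out both libraries changed none of the calls of the 10 genes. The defining genes of skeletal muscle fibres, 12 markers such as Ckm and Acta1, summed to 155315 to 232917 CPM in every library. In bulk RNA, fewer cells of a type and less RNA per cell cannot be told apart.

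Mustn1 was by far the most changed of the 10 genes. Its level was 40.1, 46.8, 37.4 and 37.8 CPM in the Control libraries, 74.0 and 46.9 CPM in the Unloading libraries, and 1155, 1135 and 934 CPM in the Reloading libraries. The 3 Reloading libraries were all far above the other 6. In CPM the group means were 40.5 ± 4.33 (SD, n = 4), 60.4 ± 19.1 (SD, n = 2) and 1075 ± 122 (SD, n = 3). The log2 fold change from Unloading to Reloading was 4.16 ± 0.18 (SE), a 17.9-fold higher level (adjusted p = 8.06e-10, edgeR quasi-likelihood test, Benjamini-Hochberg). It was the 56th largest rise of the 14851 genes tested. From Control to Reloading the level was 26.5-fold higher (log2 fold change 4.73 ± 0.14, adjusted p = 4.4e-12), the 18th largest rise. The 2 Unloading libraries differed more from each other than any other pair of Mustn1 values within the Control group, and the lower of them was 46.9 CPM beside 46.8 CPM in the highest Control library. The log2 fold change from Control to Unloading was 0.57 ± 0.15 (adjusted p = 0.0251), and without Unloading 1 it was 0.22 (adjusted p = 0.524). The call was also lost when Control 3 was left out (0.53, adjusted p = 0.0579), when Control 4 was (0.54, adjusted p = 0.051) and with robust estimation of the spread (adjusted p = 0.0986). Over the 18 alternative fits the adjusted p ran from 1.12e-09, without a filter on low counts, to 0.524, and 12 fits kept the call.

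**Figure D1:**
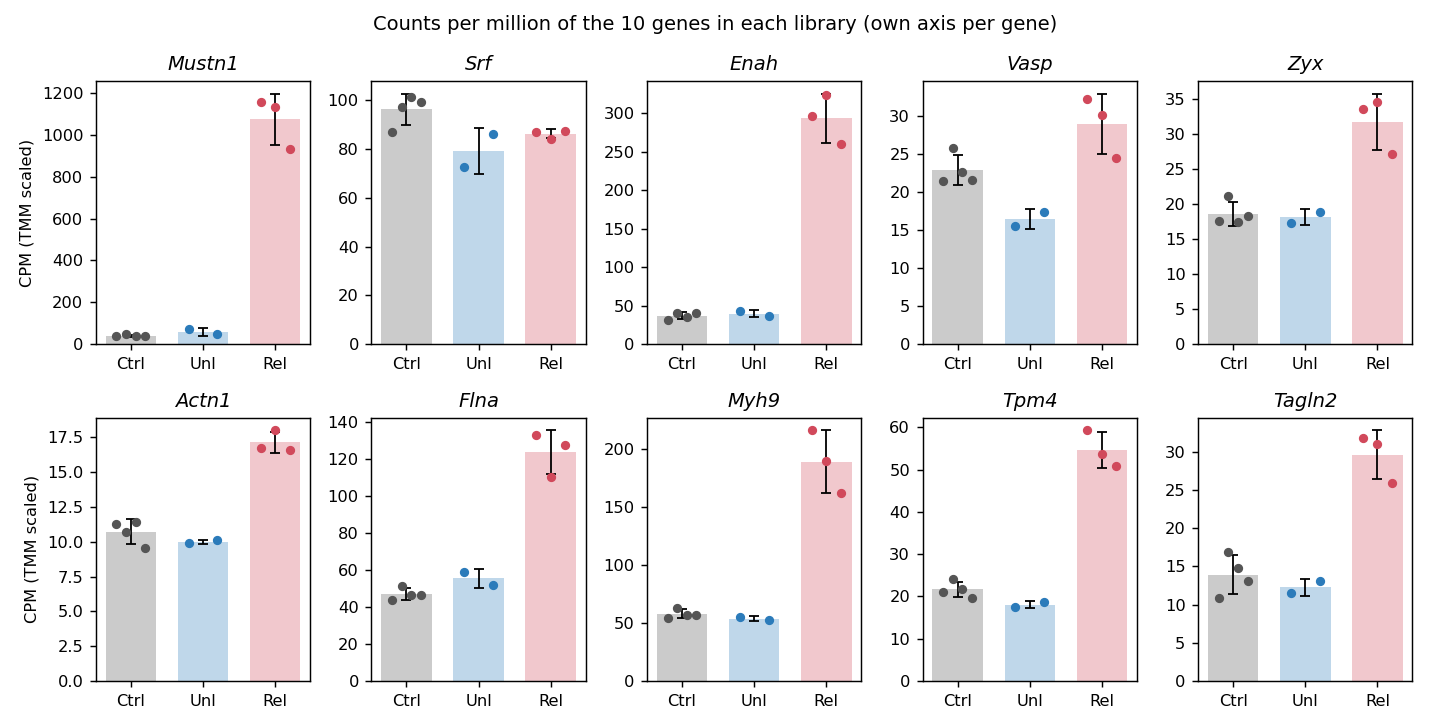
CPM (vertical axis, TMM scaled, from 0, with its own range for each gene) of the 10 genes in the Control (Ctrl), Unloading (Unl) and Reloading (Rel) libraries. Points are libraries, bars are group means and error lines are 1 SD. Mustn1 and Enah stand at 934 to 1155 and 260.1 to 324 CPM in Reloading, whereas the Srf levels of the 3 groups lie between 72.5 and 101.2 CPM.

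Of the 10 genes, 9 were higher and 0 were lower in Reloading than in Unloading at an adjusted p under 0.05, where 18.5% of all tested genes were higher and 19.0% were lower. Scaled by library totals alone, the 2743 higher and 2819 lower genes behind these shares became 5250 higher and 1090 lower. The median log2 fold change of the 10 genes was 1.21, against 0.03 for all tested genes. For the 9 higher genes, every Reloading library was above both Unloading libraries, which 60.0% of all tested genes showed in 1 direction or the other. The largest adjusted p among the 9 was 0.000174. The same 9 genes were called in all 18 alternative fits, and Srf was added by scaling with library totals.

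Srf, the transcription factor itself, was the member not called between Reloading and either other group. Its level was 86.8, 97.3, 101.2 and 99.4 CPM in Control, 72.5 and 85.9 CPM in Unloading, and 87.0, 84.1 and 87.4 CPM in Reloading. The Reloading values overlapped those of both other groups. The log2 fold change from Unloading to Reloading was 0.12 ± 0.09 with a 95% interval of -0.07 to 0.31 (adjusted p = 0.314), which holds a change of at most 0.31 on the log2 scale upward. Scaled by library totals alone it was 0.37 and called (adjusted p = 0.00314), where the median of all genes was 0.27, and it was not called in the other 17 alternative fits, with an adjusted p of up to 0.998. Both Unloading libraries were below all 4 Control libraries, with a log2 fold change of -0.28 ± 0.09 that missed the threshold (adjusted p = 0.0509), and 5 of 18 alternative fits called it lower. Between Reloading and Control the log2 fold change was -0.16 ± 0.07 (adjusted p = 0.0973). With the number in the sample descriptions as a block it was -0.21 (adjusted p = 0.0138), and without Control 1 it was -0.20 (adjusted p = 0.0396). The other 16 alternative fits did not call it, with an adjusted p of up to 0.377.

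The Ena/VASP proteins, which keep the growing end of an actin filament open, were represented by Enah and Vasp. Enah was at 31.4, 40.0, 35.4 and 41.0 CPM in Control, 43.3 and 36.2 CPM in Unloading and 297, 324 and 260.1 CPM in Reloading. Reloading raised it 7.41-fold over Unloading (log2 fold change 2.89 ± 0.13, adjusted p = 1.12e-09) and did not pass the threshold between Unloading and Control (0.10 ± 0.12, adjusted p = 0.653). Vasp was at 21.5, 25.8, 22.7 and 21.6 CPM in Control, 15.6 and 17.4 CPM in Unloading and 32.3, 30.2 and 24.6 CPM in Reloading. Both Unloading libraries were below all others, while Reloading 3 lay within the Control range. Vasp fell under unloading, by 0.47 ± 0.12 on the log2 scale (adjusted p = 0.0246), and rose on reloading by 0.81 ± 0.13 (adjusted p = 0.000174). Without Unloading 1 the fall was 0.40 and not called (adjusted p = 0.268), while the other 17 alternative fits kept the call, with an adjusted p down to 0.0056. Its level in Reloading was 1.26-fold that in Control (log2 fold change 0.34 ± 0.10, adjusted p = 0.0163). That call was lost when Reloading 1 was left out (0.25, adjusted p = 0.0885) and when Reloading 2 was (0.30, adjusted p = 0.0672), and was kept in the other 16 alternative fits, with an adjusted p down to 0.000375.

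Zyxin and the cross-linkers Actn1 and Flna were higher after reloading as well. Zyx, a LIM protein of focal adhesions and stress fibres, was at 17.6, 21.1, 17.4 and 18.3 CPM in Control, 17.3 and 18.9 CPM in Unloading and 33.5, 34.6 and 27.1 CPM in Reloading. Actn1, the alpha-actinin of non-muscle cells, was at 11.3, 10.7, 11.4 and 9.52 CPM in Control, 9.88 and 10.1 CPM in Unloading and 16.8, 18.01 and 16.6 CPM in Reloading. In both genes the Control and Unloading values overlapped and the 3 Reloading values were above all of them. From Unloading to Reloading Zyx was 1.75-fold higher (log2 fold change 0.80 ± 0.12, adjusted p = 0.000147) and Actn1 was 1.71-fold higher (0.78 ± 0.12, adjusted p = 0.00012). Neither passed the threshold between Unloading and Control, with log2 fold changes of -0.04 ± 0.12 and -0.10 ± 0.11. Flna, the filamin that links actin networks to membrane receptors, was at 43.6, 51.5, 46.6 and 46.5 CPM in Control, 58.8 and 51.9 CPM in Unloading and 133, 110.3 and 127 CPM in Reloading. Both Unloading values were just above the highest Control value, but the log2 fold change of 0.23 ± 0.09 did not pass (adjusted p = 0.135). Flna rose on reloading by 1.16 ± 0.10 on the log2 scale, a 2.23-fold higher level (adjusted p = 8.21e-07).

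Myh9, Tpm4 and Tagln2 were higher in all 3 Reloading libraries than in every Unloading library. Myh9, which moves actin filaments against each other in non-muscle cells, was at 54.1, 63.3, 57.3 and 56.5 CPM in Control, 55.2 and 52.4 CPM in Unloading and 216, 189.8 and 162 CPM in Reloading. Its level on reloading was 3.52-fold that of Unloading (log2 fold change 1.82 ± 0.11, adjusted p = 3.58e-08). Tpm4 was at 21.0, 24.0, 21.8 and 19.7 CPM in Control, 17.4 and 18.6 CPM in Unloading and 59.3, 53.8 and 50.8 CPM in Reloading. Its Unloading values were below all Control values without passing the threshold (-0.26 ± 0.10, adjusted p = 0.112), and it was 3.03-fold higher on reloading (log2 fold change 1.60 ± 0.10, adjusted p = 5.55e-08). Tagln2 was at 10.8, 16.8, 14.8 and 13.0 CPM in Control, 11.5 and 13.1 CPM in Unloading and 31.8, 31.0 and 25.9 CPM in Reloading, a 2.40-fold higher level than in Unloading (1.26 ± 0.15, adjusted p = 1.95e-05). For each of the 3 genes all Reloading libraries lay above the other 6.

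**Figure D2:**
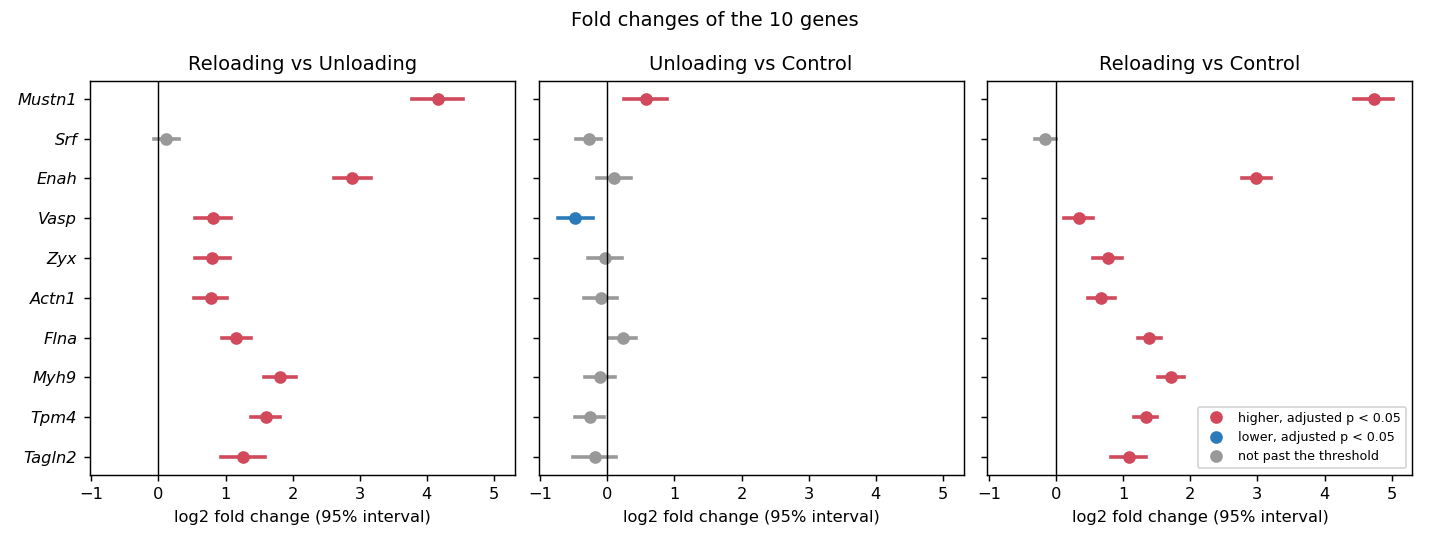
Log2 fold changes (horizontal axis) of the 10 genes in the 3 comparisons, with 95% intervals. Red marks genes called higher, blue genes called lower and grey genes not past the threshold. Against Unloading, 9 genes are coloured as higher in Reloading, from 0.78 for Actn1 to 4.16 for Mustn1, whereas Mustn1 and Vasp alone are coloured between Unloading and Control.

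Between Unloading and Control, Mustn1 was higher and Vasp was lower, and the other 8 genes did not pass the threshold. In that comparison 4.40% of all tested genes were higher and 5.50% were lower. The median log2 fold change of the 10 genes was -0.10, against -0.0038 for all genes tested. Both calls were lost without Unloading 1, which left 0 of the 10 genes, and that fit has a single Unloading library that is assumed to vary like the other groups. Between Reloading and Control, which shares its Reloading libraries with the first comparison and its Control libraries with the second, 9 genes were higher, where 22.1% of all tested genes were higher and 21.3% were lower. The log2 fold changes from Control to Reloading were 2.99 for Enah, 1.71 for Myh9, 1.39 for Flna, 1.33 for Tpm4, 1.08 for Tagln2, 0.77 for Zyx and 0.67 for Actn1. The groups did not overlap for 8 of the 9, Vasp being the exception, where 46.9% of all tested genes showed no overlap in 1 direction or the other.

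Within the Reloading group, Reloading 3 had the lowest level of 8 of the 10 genes, including Mustn1, Enah, Vasp, Zyx and Myh9, where 34.0% of all tested genes were lowest in that library. Flna and Srf were lowest in Reloading 2. In Control 2, one of the libraries with skin transcripts, 7 of the 10 genes had their highest Control level, where 27.1% of all tested genes did. The 2 Unloading libraries gave no common order. Mustn1, Enah, Flna and Myh9 were higher in Unloading 1, and Srf, Vasp, Zyx, Actn1, Tpm4 and Tagln2 were higher in Unloading 2. All these are descriptions of single libraries with no test.

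How alike each gene was to Mustn1 over the 9 libraries was measured as the root-mean-square (RMS) difference of log2 CPM, each gene being centred on the mean of the 3 group means. This measure grows with any difference in the size of a change as well as in its shape. Enah was the nearest member, with an RMS difference of 0.79, ranking 19th of the 9872 genes with a mean log2 CPM of at least 2. Myh9 followed at 1.36 (rank 62), Tpm4 at 1.52 (126), Flna at 1.54 (136), Tagln2 at 1.64 (224), Zyx at 1.80 (535), Actn1 at 1.84 (669) and Vasp at 1.96 (1451). Srf was the farthest at 2.21 and ranked 5551.

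The 10 genes nearest to Mustn1 were Xirp1, Ankrd1, Cd68, Tnfrsf12a, Csrp3, Gm13889, Hspb1, Flnc, Rrad and Rgcc. Xirp1, an actin-binding protein of the muscle fibre's adhesion sites, was nearest at 0.25 and rose from 126 ± 39.9 CPM to 2268 ± 390 CPM on reloading. Ankrd1 and Csrp3, which encode stretch-responsive proteins of the sarcomere and its Z-disc, stood at 0.34 and 0.39, with log2 fold changes of 4.52 and 4.04. Cd68, a marker of macrophages, stood at 0.36 and was at 2.57 CPM in Control, 3.05 CPM in Unloading and 45.9 CPM in Reloading. Its log2 fold change on reloading was 3.93, the largest of 12 macrophage markers tested, whose median was 0.73. Flnc, a paralog of Flna, stood at 0.57 and was at 8158 CPM in Reloading. None of these 10 passed the threshold between Unloading and Control. All were higher in Reloading than in Unloading, which their choice by nearness to Mustn1 over the same libraries fixed in advance.

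**Figure D3:**
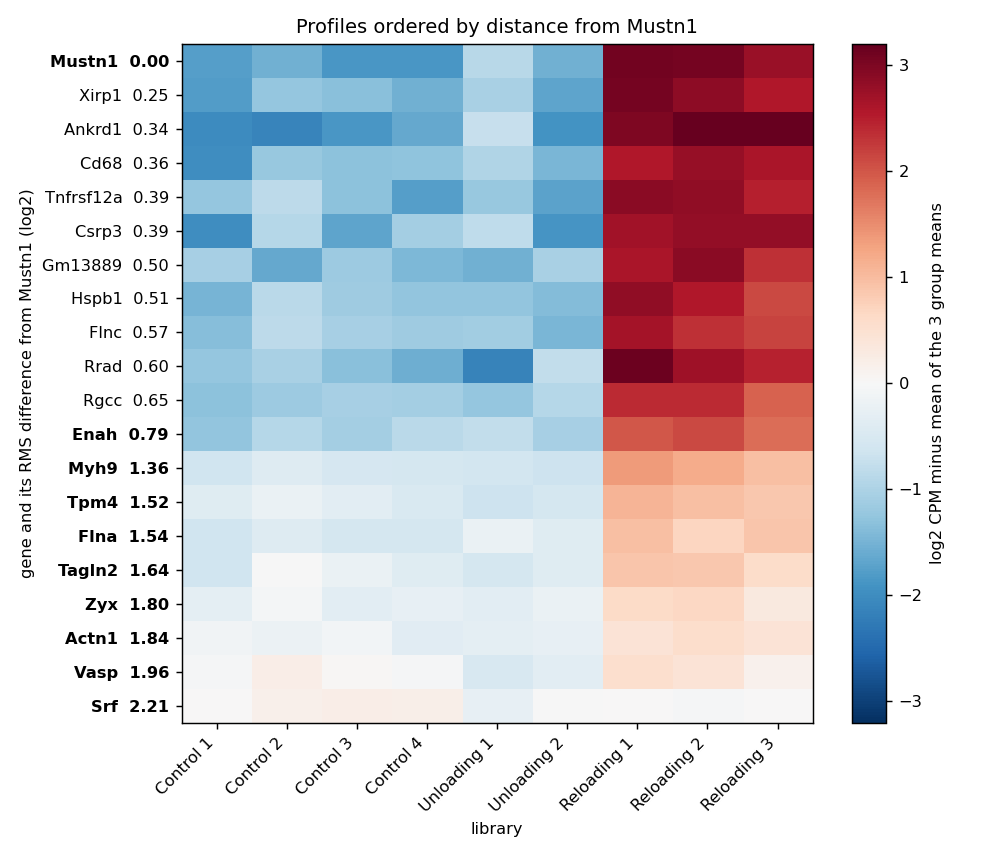
Colour shows log2 CPM minus the mean of the 3 group means for the 10 genes (bold) and the 10 genes nearest to Mustn1, in rows ordered by the RMS difference from Mustn1 given beside each name, over the 9 libraries in columns. The rows down to Enah (0.79) are strongly red in the 3 Reloading libraries, and the row of Srf (2.21) is nearly without colour there.

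On a scale per length (CPM per kilobase of summed exon length), which allows levels of different genes to be compared, Mustn1 and Srf were alike in Control, at 32.8 ± 3.50 and 33.2 ± 2.23 (SD, n = 4). In Reloading Mustn1 stood at 869.8 ± 98.9 (SD, n = 3) and Srf at 29.8 ± 0.619. All other members were below these in every group, from 1.72 for Enah to 8.76 for Vasp in Control and from 3.10 for Actn1 to 14.7 for Myh9 in Reloading. Enah went from the lowest level of the 10 genes in Control to the fifth in Reloading, at 13.7 ± 1.49. Its summed exon length of 21452 bases, against 1236 for Mustn1, holds many bases that a given transcript may lack. In Reloading the means of Myh9, Tagln2, Enah, Flna, Tpm4 and Vasp lay between 11.1 and 14.7 with SDs of 1.01 to 2.09, so neighbours in that order did not differ beyond their spread.

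Paralogs were set beside the members of their family, and differences between their changes were not tested. The shares depend on the summed exon lengths. In the Ena/VASP family, Enah made up 14.8% of the summed CPM per kilobase in Control, 20.04% in Unloading and 51.4% in Reloading, while Vasp went from 75.5% to 68.1% and 41.6%. The share of Enah was 49.2%, 52.6% and 52.5% in the Reloading libraries and at most 22.3% in the other 6. Evl, the other member of the family, rose as well, by 0.77 ± 0.19 on the log2 scale from Unloading to Reloading (adjusted p = 0.00595). Among non-muscle myosins, the Myh9 share went from 27.9% in Control and 25.9% in Unloading to 50.9% in Reloading. Myh10 rose by 1.60 ± 0.13 (adjusted p = 4.99e-07), and Myh14 did not pass the threshold (-0.22 ± 0.10, adjusted p = 0.0823).

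Flnc, the filamin of muscle fibres, changed more than Flna. It rose by 3.68 ± 0.18 on the log2 scale from Unloading to Reloading (adjusted p = 3.32e-09), beside 1.16 for Flna, and the difference between the changes of these genes was not tested. Of the alpha-actinins, Actn2, the form found in all muscle fibres, rose by 1.38 ± 0.10, Actn4 rose by 0.99 ± 0.10, and Actn3, the form of fast fibres, was higher in Unloading than in Control (0.61 ± 0.08, adjusted p = 0.000595) and fell on reloading by 0.73 ± 0.09 (adjusted p = 1.62e-05). Actn1 made up at most 0.0831% of the alpha-actinin level in any library. The other tropomyosins, which include the sarcomeric forms, moved opposite to Tpm4. On reloading Tpm1 fell by 0.66 ± 0.08, Tpm2 by 0.28 ± 0.09 and Tpm3 by 0.73 ± 0.25, and Tpm2 was already lower in Unloading than in Control (-0.77 ± 0.09, adjusted p = 0.000301).

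Of the zyxin relatives, Trip6 rose by 0.51 ± 0.17 (adjusted p = 0.0298) and Ajuba by 0.56 ± 0.20 (adjusted p = 0.0401), Lpp did not pass (-0.01 ± 0.11, adjusted p = 0.944), and Limd1 was higher in Unloading than in Control (0.27 ± 0.07, adjusted p = 0.0246) and lower in Reloading than in Unloading (-0.42 ± 0.07, adjusted p = 0.000351). Tagln, the smooth muscle relative of Tagln2, rose by 1.48 ± 0.34 (adjusted p = 0.00353) at a level of 2.05 CPM in Reloading, and Tagln3 had too few counts to be tested. In all, 9 of the 16 paralogs tested were higher on reloading and 5 were lower, where 18.5% of all tested genes were higher and 19.0% were lower. Scaled by library totals alone 9 were called higher and 2 lower, Actn3 and Tpm1, so that the falls of Tpm2, Tpm3 and Limd1 were called on the TMM scale only.

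**Figure D4:**
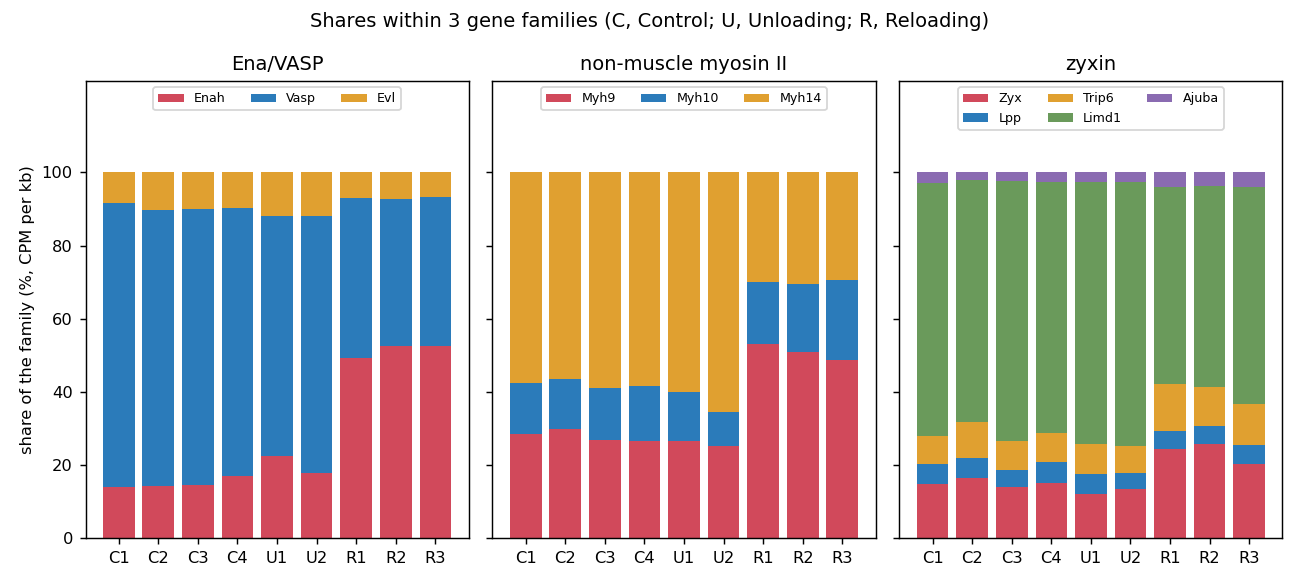
Share of each gene in the summed CPM per kilobase of its family (vertical axis, percent) in each of the 9 libraries (C, Control; U, Unloading; R, Reloading), for the Ena/VASP, non-muscle myosin II and zyxin families. Enah and Myh9 (red) take 48.6% to 52.9% of their families in the 3 Reloading libraries.

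The wider SRF pathway was read from lists written from general knowledge, with earlier results of these data known. Counts of called genes in these lists are therefore not independent of the data. Of 17 tested cofactors and regulators of SRF, 8 were higher and 5 were lower in Reloading than in Unloading, with a median log2 fold change of 0.27, where 18.5% of all tested genes were higher and 19.0% were lower. Scaled by library totals alone, 10 were called higher and 0 lower. Abra, a muscle protein that promotes SRF signalling through actin, went from 172 to 413 CPM (1.27 ± 0.08, adjusted p = 5.55e-08). Rhoc, a GTPase of the family that drives actin assembly, rose by 1.10 ± 0.13, the formin Diaph1 by 0.73 ± 0.09 and the cofactor Mrtfa by 0.84 ± 0.12 (adjusted p = 5.5e-05). Mrtfb was not called. The 5 lower genes were Elk1, Elk4, Mical2, Scai and Rock1, and none of them was called when scaled by library totals, where their log2 fold changes were -0.12, -0.17, -0.44, -0.26 and -0.22. With either Unloading library left out the count of 13 fell to 7 or 8. Between Unloading and Control only Mamstr, a muscle cofactor of the myocardin family, passed, and it was lower (-0.48 ± 0.13, adjusted p = 0.0264).

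Of 23 tested actin and adhesion targets of SRF, 20 were higher and 1 was lower in Reloading than in Unloading, with a median log2 fold change of 1.14 against 0.03 for all genes. Over all tested genes 18.5% were higher and 19.0% were lower. The largest changes were those of Cnn1 (2.54 ± 0.37), Cnn2 (1.72 ± 0.19), Itga5 (1.65 ± 0.15) and Tagln (1.48 ± 0.34). Calponins and Tagln bind actin, and Itga5 is the fibronectin receptor's alpha chain. The 1 lower gene was Tpm1, and Acta1 and Pdlim7 were not called. Between Unloading and Control 4 of these targets were lower and 1 was higher, where 5.50% of all tested genes were lower and 4.40% were higher. Actc1, cardiac actin, which muscle fibres make in development and repair, was at 325 CPM in Control and 80.5 CPM in Unloading (log2 fold change -2.01 ± 0.24, adjusted p = 0.000301). Actg2 fell by 1.31 ± 0.21, Acta1, the main actin of muscle fibres, by 0.68 ± 0.09 and Pdlim7 by 0.31 ± 0.09 (adjusted p = 0.0454). Ccn1, a secreted matrix-associated protein, rose both under unloading (0.95 ± 0.15, adjusted p = 0.00237) and on reloading (1.37 ± 0.15, adjusted p = 1.02e-05). Actc1, Actg2 and Acta1 are near-identical in their coding sequence, so reads shared between them may be split or dropped in counting.

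All 10 immediate-early targets of SRF were higher in Reloading than in Unloading, where 18.5% of all tested genes were, with a median log2 fold change of 2.30. Dusp5, a phosphatase that limits ERK signalling, rose by 5.07 ± 0.42, and the transcription factors Egr3, Egr1 and Fosb by 4.51 ± 0.64, 3.48 ± 0.40 and 2.77 ± 0.60. Dusp5 stood at 0.0921 CPM in Unloading and 3.49 CPM in Reloading, and Egr1 at 3.69 and 41.4 CPM. Egr1 was lower in Unloading than in Control (-1.36 ± 0.41, adjusted p = 0.0498), a call that was lost in 11 of 18 alternative fits, with an adjusted p of up to 0.283. Of 42 actin assembly genes 26 were higher and 6 lower on reloading, against 18.5% and 19.0% of all tested genes. The rises were led by Fscn1 (1.93 ± 0.27), Msn (1.59 ± 0.11), Lcp1 (1.25 ± 0.19) and Cfl1 (1.15 ± 0.12), which bundle filaments, tie them to the membrane or sever them. Scaled by library totals 32 of the 42 genes were called higher and 3 lower. Gsn, which severs filaments and is also high in fibroblasts, went the other way, with 674 CPM in Control, 1013 CPM in Unloading and 585 CPM in Reloading.

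**Figure D5:**
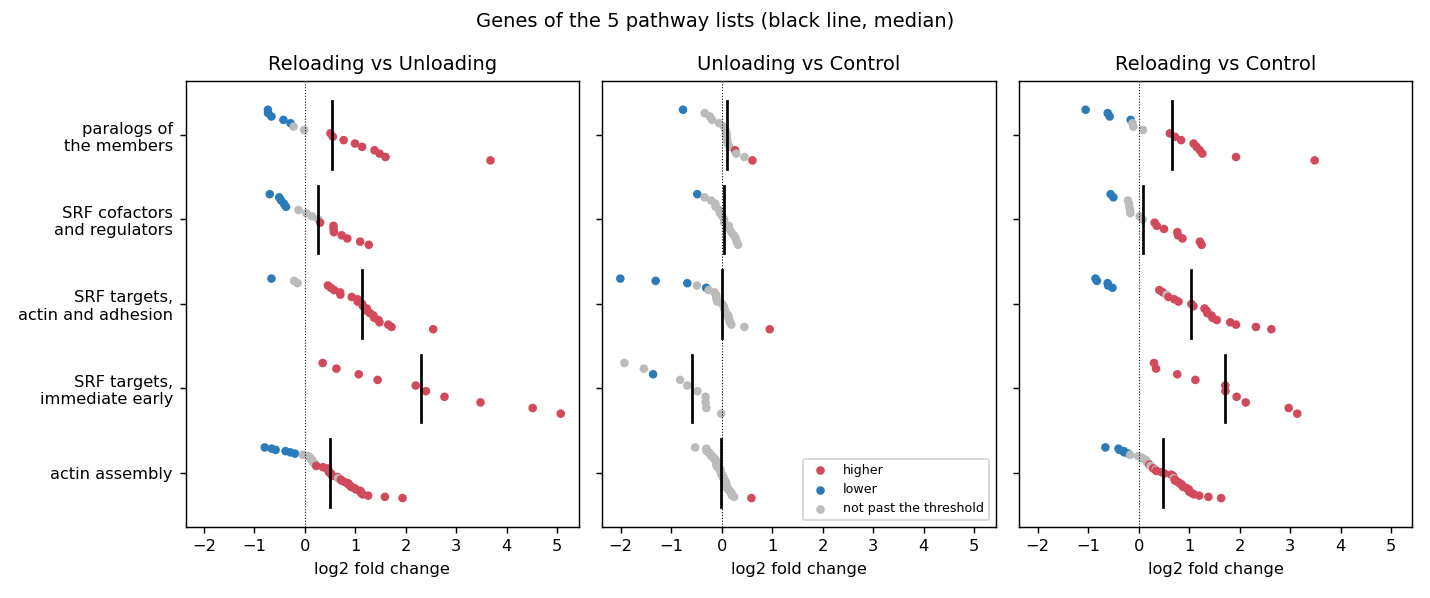
Log2 fold changes (horizontal axis) of the tested genes of 5 lists in the 3 comparisons, with 1 point per gene and the median as a black line. Red points were called higher and blue points lower. Against Unloading the medians lie from 0.27 for SRF cofactors and regulators to 2.30 for immediate-early targets, and few points are coloured between Unloading and Control.

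Markers of other cell types moved with reloading. The counts of called markers stand beside 18.5% of all tested genes higher and 19.0% lower in Reloading than in Unloading. The 13 macrophage markers summed to 95.7 to 114 CPM in Control, 97.8 to 100.9 CPM in Unloading and 185 to 209 CPM in Reloading, and 10 of the 12 tested were higher in Reloading than in Unloading. The 10 endothelial markers summed to 205 to 241, 208 to 212 and 343 to 429 CPM in the same order, with 9 of 10 higher, and the 9 satellite cell markers to 108 to 127, 141 to 144 and 202 to 222 CPM, with 4 of 8 higher. Most of the satellite cell sum was Itga7, an integrin also made by muscle fibres, at a mean of 88.6 CPM in Control, 118 CPM in Unloading and 168 CPM in Reloading, and of the other markers Pax7, Myf5, Chrdl2 and Megf10 were not called. Smooth muscle markers, 11 genes of the vessel wall, summed to 1213 to 1294, 1134 to 1165 and 1180 to 1361 CPM, ranges that overlap between Reloading and Control. The largest parts of this sum were Synpo2 and Rgs5, with 91425 and 33482 counts over all libraries. Acta2 and Myh11 had 3925 and 3579, so the sum says little of them. Of the 10 tested, 7 were higher in Reloading than in Unloading, among them Acta2 (1.46 ± 0.10), Myh11 (1.02 ± 0.12), Cnn1 and Tagln, and Rgs5 was lower (-0.29 ± 0.08) on the TMM scale but not called when scaled by library totals (-0.04). Myh11, a defining gene of smooth muscle, rose from 22.6 to 45.7 CPM. Over the 10 tested smooth muscle markers the log2 fold change ran from -0.29 to 2.54, with a median of 0.63. Fibroblast markers summed to 1229 to 1701, 1646 to 1742 and 1412 to 1675 CPM, with 4 higher and 3 lower. The largest part of this sum was Gsn, with 87883 counts over all libraries, beside 31294 for Dcn. Scaled by library totals Gsn fell on reloading by 0.54 on the log2 scale, whereas Col1a1 rose by 1.93, Col1a2 by 1.42 and Col3a1 by 1.63. The 12 muscle fibre markers summed to 227254 to 232530 CPM in Unloading and to 155315 to 169756 CPM after reloading, with 10 lower and 0 higher on the TMM scale. By library totals Acta1, Myh4, Myh2 and Myl1 were not called. The other fibre markers were still called lower, Ckm by 0.35 on the log2 scale. Neutrophil markers stayed at 1.00 to 11.1 CPM in all libraries, and of their defining genes Cxcr2 and Ly6g were at 0 in both Unloading libraries. The part of these cell types in the changes of the 10 genes was not tested.

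Genes that overlap a member on the genome were checked because counting did not use the strand. Their total counts over all 9 libraries were at most 58, beside 1525 to 15057 for the members they overlap, and Mustn1, Flna and Tagln2 had none. Mustn1 lies on chromosome 14 from 30879200 to 30881610 on the plus strand, Srf on chromosome 17 from 46548329 to 46556175 on the minus strand and Enah on chromosome 1 from 181896384 to 182019990 on the minus strand, all in GRCm38.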

How the data were processed

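RNA was measured in 9 gastrocnemius libraries. Per the labels and the study's methods, the authors aligned the reads with STAR 2.7.3a to GRCm38.p6 and used featureCounts 2.0.3 to count read pairs by gene, without strand, on Ensembl release 102. The deposited count table holds raw counts per gene and summed exon lengths. A deposited mean signal (counts over size factors, averaged by the authors) differed from the recomputed one by less than 0.01% for all 10 genes. Their fold changes and p-values, made with DESeq2 and adaptive shrinkage, were not used.

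The test was that of edgeR 4.0.16 under R 4.3.3 (quasi-likelihood F-test, two-sided). Genes were kept by filterByExpr (minimum count 10, minimum total 15), libraries were scaled by TMM, and all 9 entered 1 fit with the group as its only term. Benjamini-Hochberg adjustment ran over the 14851 genes, with a threshold of 0.05. Log2 CPM used a prior count of 2. DESeq2 1.42.0 was an alternative. The fit was also run on simulated counts with as many rises as falls, a setting that does not probe the scale shift of the Reloading libraries.

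The members and the 13 gene lists were chosen with earlier results of these data known. Named genes are the 10 members, all paralogs, the 4 largest called changes on reloading of each other list, all list genes called between Unloading and Control, and the 10 genes nearest to Mustn1. Genes named for a CArG box or to account for a count or a summed level were added after their values were seen. The values of 1 paralog are not reported here. Promoters are from RefSeq, and all 10 genes matched.

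Replicate numbers in the titles do not pair the libraries (correlation of deviations -0.20 to 0.08 over 7 pairs). With the numbers in the descriptions, all 3 correlations between Control and Reloading libraries were over 0.1 (0.361, 0.143 and 0.155). The first was that of the 2 libraries with skin transcripts, and whether these numbers mark a pairing was not tested. The study's methods state single reads, whereas the table header shows read pairs.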

Additional observations from a re-analysis of the deposited data

Results flagged for a closer look

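The summed level of the 9 skin keratinocyte markers was 309 CPM in Control 2 and 5.22 to 7.55 CPM in the other 3 Control libraries, the only one of 18 values examined in the Control group with a sample this far from the rest. The Unloading and Reloading groups hold too few libraries to be examined in this way, and in Reloading the same sum was 139.6 CPM in Reloading 1 beside 5.21 and 5.17 CPM in the other 2. Chance gives about 1 such value in 20. Of the 10 genes, 7 had their highest Control level in this library, and leaving it out together with Reloading 1 changed none of their calls.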

How the results depend on the processing

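Of 540 recomputed log2 fold changes of the 10 genes, 516 kept their direction and their side of the threshold, 9 were no longer called, 9 became called and 6 turned. None of those that turned was called where it did. Srf turned in Reloading against Unloading without Unloading 1 (-0.00060, up to 0.24 without another library) and in Reloading against Control by library totals (0.080). In Unloading against Control, Enah turned without Unloading 1 (-0.031, up to 0.22) and Zyx without Unloading 1, without Control 2 (-0.11 to 0.029 over the libraries left out) and without both libraries with skin transcripts (0.030). Of the 10 genes, 0 to 3 were past the threshold between Unloading and Control when 1 library was left out. With a replicate block by title numbers that count was 1. The Mustn1 change under unloading was 0.43 with that block, 0.42 with a replicate block by description numbers and 0.57 with robust estimation, not called in any of these, and 0.22 to 0.87 when 1 library was left out. The title numbers do not pair the libraries, and the block by description numbers changed no call between Reloading and Control other than that of Srf. Between Unloading and Control, the immediate-early count of 1 became 0 by DESeq2 size factors, library totals, robust estimation and without both libraries with skin transcripts, 2 without a filter, and 0 to 2 when 1 library was left out. The count of SRF regulators became 2 without a filter, with robust estimation and with either block, and 0 to 2 when 1 library was left out. That of actin assembly genes became 3 without a filter, 2 and 3 with the blocks by title and description numbers, and 1 to 2 when 1 library was left out, and that of actin targets 3 to 5. SRF regulators past the threshold on reloading numbered 7 to 12 when 1 library was left out. The causes were not tested. The RMS differences from Mustn1 were recomputed only with a smaller prior count and by library totals. None of them moved by more than the spread within groups. Depth limits Tagln2 and Actn1 most, with 96 and 100 counts in Control 1, the shallowest library.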
